A study of Homo sapiens with 4 samples.

Results

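The genes described here are 6 Toll-like receptor genes (TLR1, TLR2, TLR3, TLR4, TLR5 and TLR6) and 3 adaptor genes (MYD88, TIRAP and TICAM1), chosen by name as 9 of the 27685 genes measured. They are covered by 25 of the 63714 RefSeq transcripts in the deposited tables, and the transcripts of each gene were summed here. RNA came from HT-29, a human colon carcinoma line used as a model of colonic epithelium, in 2 independent experiments that each had 1 control vector library (Mock) and 1 Myc-TRIM40 library. All 4 libraries came from cells with no further treatment. Control cells were labelled WT, and Myc-TRIM40 cells, labelled TRIM40 overexpression, stably carried N-terminally Myc-tagged human TRIM40, which the study introduced with a retroviral vector under puromycin selection. No ligand for a Toll-like receptor was given to either group. The model is a single cancer line in which TRIM40 was expressed from a viral vector, and TRIM40 reads were absent from the control cells. The RNA was sequenced as stranded mRNA libraries, and whether reads were counted by strand is not given in the sources used here.

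Toll-like receptors are membrane proteins of innate immunity that recognise microbial products through an ectodomain of leucine-rich repeats and signal through a cytoplasmic TIR domain. TLR1, TLR2, TLR4, TLR5 and TLR6 act mainly at the cell surface, where TLR2 pairs with TLR1 or TLR6 to bind lipopeptides, TLR4 with its partner LY96 binds lipopolysaccharide, and TLR5 binds flagellin. TLR3 acts in endosomes and binds double-stranded RNA. MYD88 serves every Toll-like receptor except TLR3, TIRAP bridges MYD88 to the receptors at the plasma membrane, and TICAM1 (also called TRIF) carries the signal of TLR3 and, with TICAM2, part of that of TLR4. MYD88 signalling leads to NF-kappaB and inflammatory genes, and TICAM1 signalling also leads to IRF3 and interferon-beta. In the intestine, expression of these receptors by epithelial cells is known to be low or restricted in location.

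Total reads lay between 60954602 and 67424698 per library. TRIM40 itself had 0 reads in both control libraries, and Myc-TRIM40 cells had 272646 such reads in experiment 1 and 110665 in experiment 2. All 10 markers of colon epithelium that were looked up had enough reads to test. Their summed FPKM (reads scaled by transcript length and library total) lay between 6366 and 8962. KRT8 and KRT18 made up most of it, whereas CDX1 and CDH17 had means of only 0.364 and 0.369 FPKM. Markers of T and B cells (4 of 4) were at 0 reads in every library. Of 8 myeloid markers only CD68 and ITGAM had enough reads to test, and CD163, CSF1R, MARCO and FCGR1A were at 0. Summed over these 8 markers the level was 7.66 and 6.19 FPKM in the controls and 13.2 and 7.56 FPKM in Myc-TRIM40 cells. CD68 alone made up most of it, at 6.99 and 5.86 FPKM in the controls and 11.9 and 7.17 FPKM in Myc-TRIM40 cells. The sum was higher within each experiment, as for TLR3, MYD88 and TICAM1, and its part in their values was not tested. Among 4 fibroblast markers COL1A1 alone could be tested, with summed levels of the 4 of 0.608 and 0.297 FPKM in the controls and 0.946 and 0.389 FPKM in Myc-TRIM40 cells. Among 3 endothelial markers PECAM1 alone could be tested, with sums of 0.0742 and 0.0679 FPKM in the controls and 0.134 and 0.0944 FPKM in Myc-TRIM40 cells. These sums too were higher within each experiment, and their part in the members' values was not tested.

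The following 3 stretches of promoter are shown for the members that held an ISRE or NF-kappaB motif and had read ratios above 1 in both experiments. TLR6 also had such ratios, but none of the motifs searched. Each runs from 140 bases before the RefSeq start to 10 bases after it (GRCh38.p14), on the strand of the gene, and capitals mark the motif named.
TLR3, chr4:186069016-186069165, plus strand, ISRE on the reverse strand: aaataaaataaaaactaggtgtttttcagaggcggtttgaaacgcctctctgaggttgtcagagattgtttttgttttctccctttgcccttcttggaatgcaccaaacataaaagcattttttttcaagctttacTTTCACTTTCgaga
MYD88, chr3:38138521-38138670, plus strand, ISRE: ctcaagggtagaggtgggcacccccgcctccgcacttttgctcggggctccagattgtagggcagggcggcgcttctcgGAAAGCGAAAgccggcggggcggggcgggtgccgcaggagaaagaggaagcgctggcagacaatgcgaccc
TICAM1, chr19:4831703-4831852, minus strand, NF-kappaB motif: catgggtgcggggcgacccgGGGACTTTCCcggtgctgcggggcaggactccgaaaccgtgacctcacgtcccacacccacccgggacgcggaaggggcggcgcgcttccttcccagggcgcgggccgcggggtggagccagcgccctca

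The ISRE, the element bound by interferon-activated factors, was searched as GAAANNGAAA on both strands of the window from 250 bases before to 50 after the start. It was found in TLR3 at positions -4 to 6 and in MYD88 at -61 to -52, where 1 is the first transcribed base, and in none of the windows of TLR2, TLR4, TLR5, TLR6 and TICAM1. Of 35116 RefSeq promoter windows of that length, 3.57% hold this motif. The GAS motif of STAT dimers, searched as TTCNNNGAA, was also found only in TLR3 (-178 to -170 and -50 to -42) and MYD88 (-67 to -59, overlapping its ISRE), against 7.66% of all windows. The NF-kappaB motif was found only in TICAM1 (-120 to -111), against 5.91% of all windows. RefSeq windows were matched for 7 of the 9 genes, TLR1 and TIRAP being the others. A match describes the letters and does not show that a factor binds there.

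The adaptors were expressed at moderate levels and the receptors at low levels in control cells. MYD88 had the highest level, with 18.8 FPKM in control 1 and 14.2 FPKM in control 2, and its mean level lay above that of 70.1% of the 14868 genes tested. TIRAP had 8.38 and 3.61 FPKM and TICAM1 4.04 and 3.12 FPKM. TIRAP was above TICAM1 within each control library, but their ranges overlapped, so these neighbours did not differ beyond the spread between the controls, whereas MYD88 lay above both. Summed over the 3 adaptors the level was 31.2 and 21.0 FPKM, against 1.74 and 0.907 FPKM for the 6 receptors together.

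Among the receptors in control cells TLR4 had the highest mean level, with 0.972 FPKM in control 1 and 0.351 in control 2. TLR3 followed with 0.365 and 0.326 FPKM and TLR6 with 0.330 and 0.150 FPKM. The ranges of TLR4 and TLR3 overlapped, as did those of TLR3 and TLR6, so these neighbours did not differ beyond the spread between the controls, although the order was the same within each control library. TLR5 had 0.0487 and 0.0608 FPKM, below TLR6 and above TLR1, which had 0.0280 and 0.0202 FPKM. TLR2 was listed at 0 in all 4 libraries for each of its 8 transcripts.

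**Figure D1:**
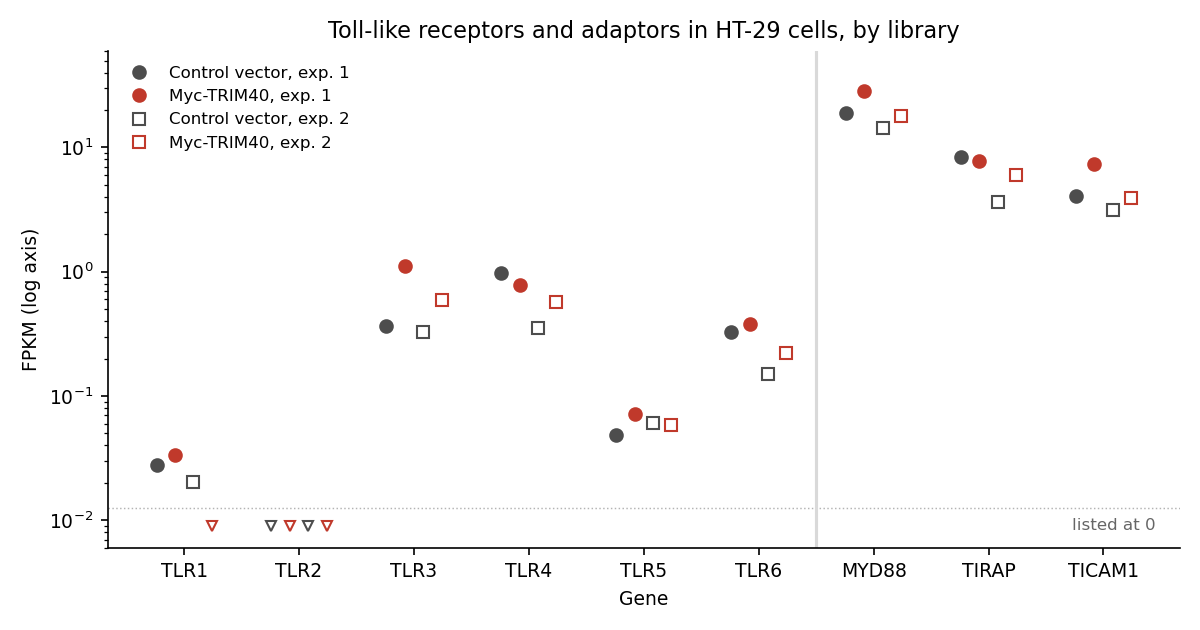
FPKM of each gene (log axis) in each of the 4 libraries, with filled circles for experiment 1, open squares for experiment 2, dark grey for control vector, red for Myc-TRIM40, and open triangles below the dotted line for values listed at 0. The 3 adaptors sit between 3.12 and 28.4 FPKM and the receptors at or below 1.12 FPKM, and TLR3 is the gene whose 2 red points both lie above its 2 grey points.

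TLR1 and TLR2 had too few reads to test. TLR1 had 6 reads in control 1, 7 in Myc-TRIM40 1, 5 in control 2 and 0 in Myc-TRIM40 2. These counts have wide exact Poisson 95% intervals, such as 2.20 to 13.1 reads in control 1, and no difference was detectable at this depth. The 0 reads of TLR2 in each library allow up to 3 reads, or 0.0491 CPM (reads scaled to a common library size) in control 1, where the limit is widest. TLR5 passed the filter narrowly, with 13, 20, 18 and 16 reads in control 1, Myc-TRIM40 1, control 2 and Myc-TRIM40 2. TLR1 and TLR6 are close paralogs, and reads of near-identical stretches could be divided between them by the authors' assignment.

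The main comparison asked whether TRIM40 alters the RNA of these genes, with each Myc-TRIM40 library set against the control of its own experiment. Reads from bulk RNA cannot tell a smaller number of expressing cells from less RNA per cell. The edgeR p-values set each difference against the spread between 2 experiments. That spread has 1 residual degree of freedom per gene and was drawn towards the trend over all genes, with 7.44 prior degrees of freedom. They therefore reflect mostly the spread shared by many genes, and less that of the gene itself. None of the 7 tested genes passed an adjusted p of 0.05 in edgeR's quasi-likelihood F test with the experiment as a block, where 0.0605% of the 14868 genes tested did so in either direction. DESeq2 (0.363% of all genes) and limma on log2(FPKM + 1) (0.0202%) also called 0 of the 7. At an unadjusted p under 0.05 edgeR named 1 of the 7, TLR3, against 4.54% of all genes. TLR3 alone was also named at that p by DESeq2 (3.65% of all genes), by limma (4.85%) and by edgeR without the block (1.03%). All 7 fitted log2 fold changes were above 0, as were 54.9% of those of all genes, although that of TLR4 was -0.033 without the block. Their median was 0.30, beside 0.04 over all genes tested.

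TLR3, the receptor of double-stranded RNA, had the largest fitted difference of the 7 genes. It had 70 reads in control 1 and 213 in Myc-TRIM40 1, and 69 in control 2 and 116 in Myc-TRIM40 2. Scaled by TMM library size this was 1.15 and 3.40 CPM in experiment 1 and 1.08 and 1.80 in experiment 2. Both Myc-TRIM40 libraries lay above both control libraries, which 11% of all tested genes showed (9.67% showed the opposite separation). The controls of the 2 experiments differed by -0.08 on the log2 scale, less than either ratio of Myc-TRIM40 to control. The Myc-TRIM40 libraries of the 2 experiments differed by -0.91. In size this was more than the ratio of experiment 2 and less than that of experiment 1. The within-experiment log2 ratio was 1.57 in experiment 1 (95% counting interval 1.17 to 1.98) and 0.74 in experiment 2 (0.29 to 1.19). These intervals are exact binomial ones and cover counting error only. The fitted log2 fold change was 1.15 (standard error 0.37), with an edgeR adjusted p of 0.888. TLR3 is also on the study's own list from its microarrays of these cells, so it was not picked here independently of such results.

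MYD88 and TICAM1 also had higher values in both experiments. MYD88 had 3246 reads in control 1 and 4939 in Myc-TRIM40 1, and 2796 in control 2 and 3179 in Myc-TRIM40 2. The log2 ratio was 0.57 in experiment 1 (counting interval 0.50 to 0.63) and 0.17 in experiment 2 (0.10 to 0.25). The groups overlapped, because Myc-TRIM40 2, at 49.4 CPM, lay below control 1 at 53.2. Between experiments the MYD88 controls differed by -0.28 on the log2 scale, more in size than the ratio of experiment 2. The Myc-TRIM40 libraries differed by -0.67, more in size than either ratio. The fitted log2 fold change of MYD88 was 0.37 (standard error 0.22, edgeR adjusted p = 0.888).

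TICAM1 had 689 reads in control 1 and 1256 in Myc-TRIM40 1, and 590 in control 2 and 685 in Myc-TRIM40 2. Its log2 ratio was 0.83 in experiment 1 (counting interval 0.69 to 0.96) and 0.20 in experiment 2 (0.04 to 0.36). Here too Myc-TRIM40 2, at 10.7 CPM, lay below control 1 at 11.3, so the groups overlapped. Between experiments the TICAM1 controls differed by -0.29 on the log2 scale, again more in size than the ratio of experiment 2. The Myc-TRIM40 libraries differed by -0.91, more in size than either ratio. The fitted log2 fold change of TICAM1 was 0.52 (standard error 0.24, edgeR adjusted p = 0.888). TLR3, MYD88 and TICAM1 had larger ratios in experiment 1 than in experiment 2. TRIM40 reads were also higher in experiment 1, and their part in the size of these ratios was not tested. With 1 library per condition in each experiment the difference between experiments could not be tested.

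TIRAP and TLR4 went opposite ways in the 2 experiments. TIRAP had 1057 reads in control 1 and 971 in Myc-TRIM40 1, and 497 in control 2 and 770 in Myc-TRIM40 2. The log2 ratio was -0.16 in experiment 1 (counting interval -0.29 to -0.03) and 0.62 in experiment 2 (0.45 to 0.78). The 2 controls differed by more than either pair did, with control 2 lower than control 1 by a log2 value of -1.15. The fitted log2 fold change of TIRAP was 0.23 (standard error 0.26, edgeR adjusted p = 0.900).

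TLR4 had 345 reads in control 1 and 278 in Myc-TRIM40 1, and 141 in control 2 and 209 in Myc-TRIM40 2. Its log2 ratio was -0.35 in experiment 1 (counting interval -0.58 to -0.12) and 0.55 in experiment 2 (0.24 to 0.87). For TLR4 as well the difference between the controls, at -1.35, exceeded both ratios. The fitted log2 fold change was 0.09 (standard error 0.31, edgeR adjusted p = 0.969).

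TLR6 and TLR5 had ratios within counting error in each experiment. TLR6 had 122 reads in control 1 and 140 in Myc-TRIM40 1, and 62 in control 2 and 85 in Myc-TRIM40 2, and its controls differed by -1.04 on the log2 scale. The log2 ratio of TLR6 was 0.16 in experiment 1 (counting interval -0.20 to 0.52) and 0.44 in experiment 2 (-0.05 to 0.94). For TLR5 it was 0.58 in experiment 1 (-0.50 to 1.71) and -0.18 in experiment 2 (-1.25 to 0.87). With so few reads, even a difference of the size seen for TLR3 in experiment 2 would lie within the counting interval of TLR5. A read ratio above 1 in both experiments was found for 4 of the 7 genes, namely TLR3, TLR6, MYD88 and TICAM1, against 28.6% of all tested genes, and a ratio below 1 in both for 0 of the 7, against 26.3%.

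**Figure D2:**
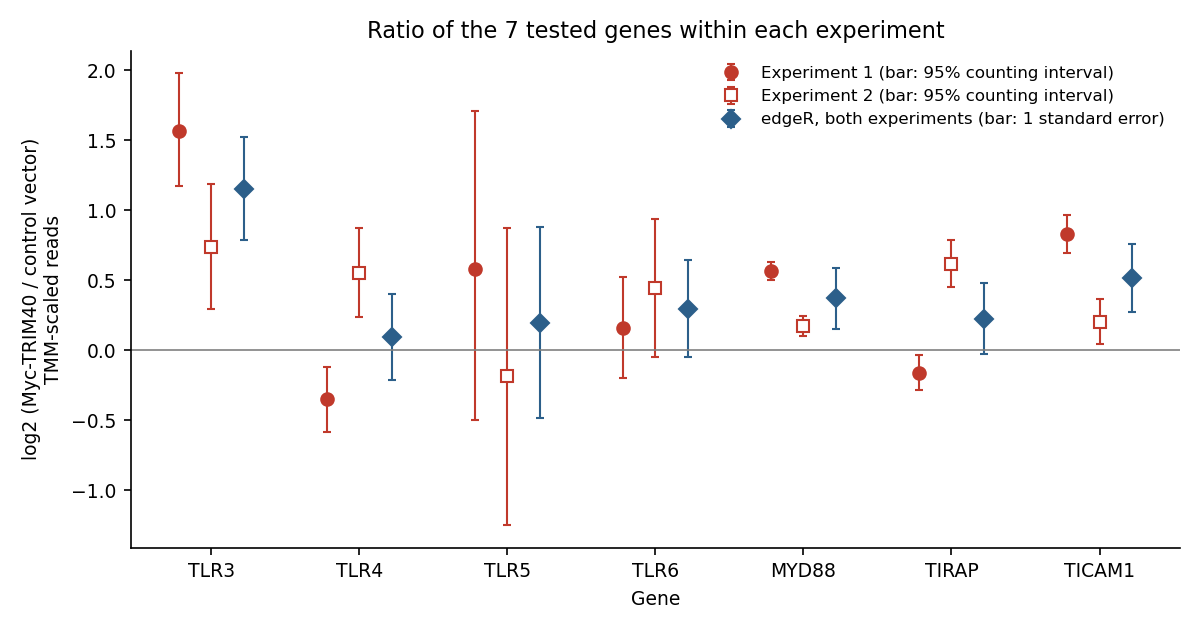
Log2 ratio of Myc-TRIM40 to control vector for the 7 tested genes (y axis, TMM-scaled reads), with red filled circles for experiment 1 and red open squares for experiment 2 (bars: 95% counting intervals) and blue diamonds for the edgeR estimate over both (bars: 1 standard error). TLR3, MYD88 and TICAM1 have both experiments above 0 with intervals that leave out 0. TIRAP and TLR4 have intervals on opposite sides of 0. The counting intervals cover counting error only, and the part of all genes whose intervals leave out 0 was not computed.

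The study computed fold changes as a ratio of FPKM + 1, a scale that compresses genes with FPKM below 1 such as the receptors. On this scale 2 of the 9 genes passed 1.5-fold in experiment 1, TLR3 (1.55-fold) and TICAM1 (1.66-fold), where 1.66% of all 27685 genes did so upward. MYD88 reached 1.49-fold. The median log2 ratio of FPKM + 1 over genes with a mean of at least 1 FPKM was 0.01 in experiment 1 and 0.10 in experiment 2, so values in experiment 2 are read against that shift. In experiment 2 TIRAP passed at 1.52-fold (0.60 on the log2 scale), where 4.71% of all genes did, but after centring on that median it was at 1.41-fold and no longer passed. In the same experiment TLR3 was at 1.20-fold, TICAM1 at 1.19-fold and MYD88 at 1.24-fold. Downward 0 of the 9 passed in either experiment (0.466% and 1.59% of all genes). No member passed in both experiments, where 0.26% of all genes passed upward and 0.0506% downward. With a pseudocount of 0.1 in place of 1, TLR3 passed in both, as did 1.37% of all genes upward. With TPM in place of FPKM 0 of the 9 passed in both, against 0.675% of all genes.

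The same libraries were looked up for interferon-stimulated genes. They were chosen because the study names this group among the genes altered by TRIM40, so their direction is not independent evidence. The 10 genes looked up had log2 read ratios with a median of 3.57 in experiment 1 (lowest 2.15, highest 6.99) and 0.95 in experiment 2 (lowest -0.28, for ISG15, and highest 2.22). None of the 10 passed an adjusted p of 0.05 in edgeR (0.293 to 0.888), against 0.0605% of all genes tested, while 9 had an unadjusted p under 0.05, against 4.54%. TLR3 and MYD88 are known interferon-inducible genes, and their ratios and that of TICAM1 were smaller than the lowest of these 10 in experiment 1. The part of interferon in the values of TLR3, MYD88 and TICAM1 was not tested. IFNB1, the gene of interferon-beta, had 0 reads in both control libraries and in Myc-TRIM40 2 and 32 reads in Myc-TRIM40 1, and it too was singled out after its values were seen.

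Reads of MYD88 were divided among 5 transcript variants in the deposited tables. Differences in the RNA and differences in the assignment of reads to variants cannot be told apart in these shares. Variant 3 encodes the short form of the protein, known to lack the segment between the death domain and the TIR domain and to limit signalling. It differs from variant 2, the full-length form, by a stretch of 135 bases (45 codons), which equals the difference of their deposited lengths of 2849 and 2714 bases. The stretch is shown in capitals with 15 bases on each side, from the GENCODE transcripts paired with the 2 variants, and its ends can be placed with 1 base of freedom.
MYD88 segment absent from variant 3: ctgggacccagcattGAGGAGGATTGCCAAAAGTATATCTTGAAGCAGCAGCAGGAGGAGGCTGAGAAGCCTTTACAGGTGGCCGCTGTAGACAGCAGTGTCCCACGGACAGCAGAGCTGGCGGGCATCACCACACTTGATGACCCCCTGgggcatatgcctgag

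Reads assigned to the full-length variant 2 made up 31.6% of MYD88 reads in control 1 (upper Wilson 95% bound 33.2%) and 53.1% in Myc-TRIM40 1 (51.7 to 54.5%). In experiment 2 the order was opposite, with 89.4% in control 2 (88.2 to 90.5%) and 44.9% in Myc-TRIM40 2 (43.2 to 46.6%). The short variant 3 took 40.5% in control 1 and 22.0% in Myc-TRIM40 1, but 5.19% in control 2 and 41.9% in Myc-TRIM40 2. The 2 controls thus differed in the share of either variant by more than the 2 libraries of experiment 1 did, and the groups overlapped for both variants. Against experiment 2 this held for variant 2 only, because its libraries differed slightly more in variant 3 than the controls did. Variant 5 had 443 reads in Myc-TRIM40 1 and 0 in the other 3 libraries.

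TLR4 was also divided differently among its variants from library to library. All 141 TLR4 reads of control 2 were assigned to variant 3, which took 41.4% in control 1, 25.2% in Myc-TRIM40 1 and 6.70% in Myc-TRIM40 2. Variant 1 took 20.3% in control 1, 53.2% in Myc-TRIM40 1, 0 reads in control 2 and 56.5% in Myc-TRIM40 2. In these shares both Myc-TRIM40 libraries lay above both controls for variant 1 and below both for variant 3. The part of all transcripts that separate this way was not computed. As for MYD88, differences in the RNA and in the assignment of reads cannot be told apart here. The 3 variants have lengths from 5494 to 5781 bases, and no test was made of these shares. TIRAP kept more even shares, with variant 3 the largest in 3 libraries at 63.7% in control 1, 65.9% in Myc-TRIM40 1 and 47.9% in control 2, and variant 5 slightly larger in Myc-TRIM40 2 at 43.5% against 41.95%. TLR1, TLR3, TLR5, TLR6 and TICAM1 had 1 transcript each in the tables, so their values do not depend on such a division.

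**Figure D3:**
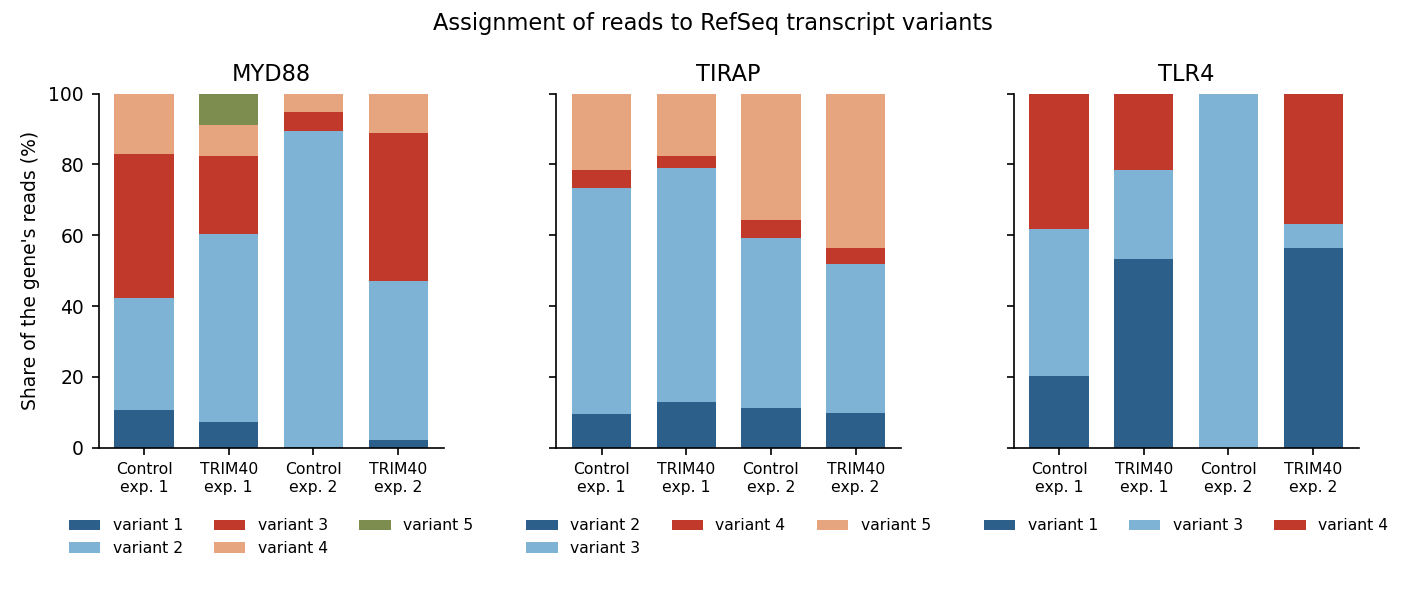
Share of each gene's reads (y axis, %) assigned to each RefSeq transcript variant of MYD88, TIRAP and TLR4 in the 4 libraries, as stacked bars. The 2 control bars of MYD88 differ strongly (variant 2 at 31.6% and 89.4%), as do those of TLR4 (variant 3 at 41.4% and 100%), whereas TIRAP bars are more alike.

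The files place the 9 genes as follows on hg19, the build that the submitters' processing notes name. TLR1 (Entrez gene 7096, chr4:38797876-38806412) and TLR6 (10333, chr4:38825329-38858438) are neighbours on chromosome 4, which also holds TLR2 (7097, chr4:154605404-154627412) and TLR3 (7098, chr4:186990309-187006252). TLR4 (7099) is at chr9:120466453-120479769 and TLR5 (7100) at chr1:223282748-223316624. MYD88 (4615) is at chr3:38179969-38184512, TIRAP (114609) at chr11:126152982-126164828 and TICAM1 (148022) at chr19:4815936-4831754. Of the 9 only TLR5 overlaps another gene of the tables, MIR5096, which stayed under 10 reads in every library. These hg19 positions are not comparable with the GRCh38.p14 positions of the promoters above.

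For each tested member except TLR5, the 3 genes with the most similar profile were found by the root mean square difference of log2(FPKM + 1), centred per gene, over the 4 libraries. TLR3 was closest to SLC6A20 (0.0174), SLC16A4 (0.0212) and KCTD11 (0.0268). MYD88 was closest to LGALS3BP (0.0206), ADCY4 (0.0243) and MOB3C (0.0362), and TICAM1 to MOB3C (0.0259), APOL3 (0.0412) and CD68 (0.0473). LGALS3BP, for example, had 402.6, 608.6, 302.4 and 384 FPKM in control 1, Myc-TRIM40 1, control 2 and Myc-TRIM40 2, the same order as MYD88. TIRAP was closest to PLAGL2, ZNF488 and MSN, TLR4 to GPI, TBC1D13 and IL17RA, and TLR6 to PCBP1-AS1, PP14571 and DNAJC18. Such likeness was shared by many genes: 52 genes lay within 0.1 of TICAM1, 95 of MYD88, 103 of TLR3 and 545 of TIRAP, whose own spreads about their means on this scale were 0.380, 0.343, 0.268 and 0.4001. TLR4 had 1033 and TLR6 2601 genes within 0.1, with spreads of 0.204 and 0.103, so that for TLR6 this limit is about as wide as its own spread.

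The rest of the pathway was described with a list of 54 further genes, of which 44 had enough reads to test. None passed an adjusted p of 0.05 in edgeR, while 6 had an unadjusted p under 0.05 in the direction of higher levels and 0 in that of lower levels, where 3.41% of all genes tested were higher at that p. Of the 44 log2 fold changes 36 were above 0, against 54.9% of those of all genes, with a median of 0.22, beside 0.04 over all genes tested. On FPKM + 1, 10 of the 54 genes passed 1.5-fold upward in experiment 1 (1.66% of all genes) and 0 did in experiment 2 (4.71%), and 0 passed downward in either. No gene of the list passed in both.

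Further receptors and co-receptors were scarce. TLR7, TLR8 and TLR10, together with LY96, the partner of TLR4, and LBP, which delivers lipopolysaccharide, were at 0 reads in all libraries. TLR9 had 6 reads in Myc-TRIM40 1 and 0 elsewhere. CD14, the co-receptor that hands lipopolysaccharide to TLR4, had 148 and 243 reads in control and Myc-TRIM40 of experiment 1, and 297 and 219 reads in experiment 2, so it went opposite ways. The chaperone HSP90B1, which folds most Toll-like receptors, was the most abundant gene of the list at a mean of 367.2 FPKM (log2 fold change -0.03, standard error 0.20, edgeR adjusted p = 0.991). These zeros were singled out after their values were seen.

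Of the further adaptors SARM1, a TIR protein that limits TICAM1 signalling, had a mean of 2.02 FPKM and a log2 fold change of 0.22 (standard error 0.24). TICAM2, the bridge between TLR4 and TICAM1, had 45 and 64 reads in experiment 1 and 0 and 67 in experiment 2, and it shares its position with the readthrough gene TMED7-TICAM2, so its values are uncertain. The 15 kinases and ubiquitin ligases were all tested and 0 had an unadjusted p under 0.05 in edgeR. IRAK1, the kinase downstream of MYD88, was the most abundant of them at 158.1 FPKM, with a log2 fold change of -0.02 (standard error 0.21). Of 5 transcription factors IRF3, which TICAM1 signalling activates, was the most abundant at 84.6 FPKM, with a log2 fold change of -0.26 (standard error 0.22), and its position overlaps that of BCL2L12. IRF7, an interferon-inducible factor, had log2 read ratios of 2.25 in experiment 1 and 0.27 in experiment 2 (edgeR adjusted p = 0.888).

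Among 7 inhibitors SIGIRR, a receptor that dampens signalling, was the most abundant at 74.9 FPKM (log2 fold change -0.23, standard error 0.23). TNFAIP3, the deubiquitinase A20 that is itself induced by NF-kappaB, had 100 and 640 reads in experiment 1 and 72 and 140 in experiment 2 (log2 fold change 1.82, standard error 0.42, edgeR adjusted p = 0.469). CYLD, another deubiquitinase, had a log2 fold change of 0.59 (edgeR adjusted p = 0.888).

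The 14 target genes held most of the large ratios of experiment 1. On FPKM + 1, 8 of the 14 passed 1.5-fold upward in experiment 1 (1.66% of all genes) and 0 in experiment 2 (4.71%). NFKBIA, the feedback inhibitor of NF-kappaB and the most abundant of them at 20.2 FPKM, had log2 read ratios of 0.51 and -0.26. CXCL8, a neutrophil chemokine, had 115 and 680 reads in experiment 1 and 374 and 295 in experiment 2. BIRC3, an NF-kappaB-induced ubiquitin ligase, had 221 and 1308 reads in experiment 1 and 353 and 651 in experiment 2 (log2 fold change 1.69, standard error 0.38, edgeR adjusted p = 0.444). BIRC3, like TLR3, is on the study's microarray list. The other target genes with an unadjusted p under 0.05 were the adhesion molecule ICAM1 (log2 fold change 0.83) and the chemokine CCL20 (1.87), both at an edgeR adjusted p of 0.888. The 6 genes of the list with an unadjusted p under 0.05, TICAM2, CD14 and CXCL8 were named after their values were seen.

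**Figure D4:**
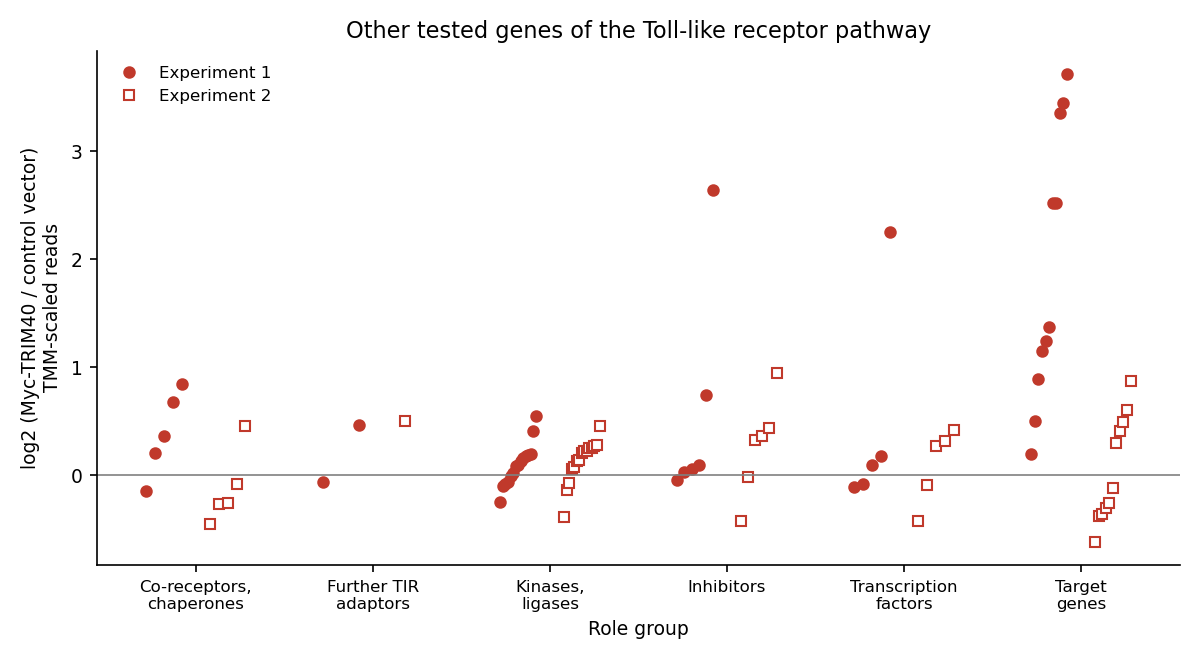
Log2 ratio of Myc-TRIM40 to control vector (y axis, TMM-scaled reads) for the tested genes of 6 role groups (x axis), with filled circles for experiment 1 and open squares for experiment 2, and with TICAM2 left out of experiment 2 because its control had 0 reads. Target genes reach the highest ratios in experiment 1, and lie on both sides of 0 in experiment 2, whereas kinases and ligases lie closer to 0 in both.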

How the data were processed

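The authors deposited, for each library, estimated read counts per RefSeq transcript as whole numbers, FPKM, and in experiment 2 TPM. HISAT2 2.1.0, StringTie 1.3.4d and hg19 are in the submitters' processing notes, and filters are not given in the sources used here. Transcript lengths were taken from the deposited tables. Experiment 1 had no TPM column, so FPKM was rescaled here to the same sum.

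Reads were summed to genes. The test was edgeR 4.0.16 in R 4.3.3 (glmQLFTest, TMM, filterByExpr, 14868 genes, Benjamini-Hochberg), with the experiment as a block because the study compared libraries within experiments and each table holds one experiment. Same-numbered libraries deviated together (r = 0.42 across genes). The 1 residual degree of freedom and 2 experiments limit precision: exchanging labels within 2 pairs cannot give an exact two-sided permutation p below 0.5. Standard errors came from the F statistic. Alternatives were DESeq2 1.42.0, limma 3.58.1, no block, upper-quartile scaling, no filter, each experiment left out and, for folds, a pseudocount of 0.1, a 2-fold threshold, TPM, centring and a minimum FPKM. Scripts were tested on simulated counts. Python 3.11.15 and scipy 1.17.1 gave Poisson, Clopper-Pearson and Wilson intervals, which cover counting error only.

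Named genes were the 9 members, TRIM40, in each role group of the pathway the gene with the highest mean FPKM and genes past 1.5-fold in both experiments, and the 3 nearest profiles per member, of which those of TLR5 are not reported here. Members, lists and motifs were chosen with earlier results of these data known. Promoter windows were from RefSeq (GRCh38.p14) and transcripts from GENCODE 29.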

Additional observations from a re-analysis of the deposited data

How the results depend on the processing

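The number of the 7 tested members called was 0 in edgeR and in each of the 5 other fits (no replicate block, DESeq2, limma, upper-quartile scaling and no filter). Their 35 log2 fold changes under those fits kept their direction in 34 cases, with adjusted p between 0.804 and 1, the exception being TLR4 at -0.033 with no replicate block. TLR3 ranged from 0.45 (limma on FPKM + 1) to 1.22 (no block). Leaving out an experiment leaves no residual degree of freedom and gives values only: TLR4 ranged from -0.35 to 0.55, TLR5 from -0.18 to 0.58 and TIRAP from -0.16 to 0.62, while TLR3, TLR6, MYD88 and TICAM1 stayed above 0. Over all genes edgeR called 6 higher and 3 lower, against 0 and 0 without the replicate block or without the filter, 45 and 9 in DESeq2, and 3 and 0 in limma. Members past 1.5-fold upward in both experiments numbered 0 (72 of all genes), but 1 (TLR3) with a pseudocount of 0.1 (380 of all genes), and between 1 and 2 with 1 experiment counted (1303 and 459 of all genes). For the pathway list the count was 0, but 2 with a pseudocount of 0.1, 3 with TPM (187 of all genes), and between 0 and 10 with 1 experiment counted. The causes of these differences were not tested. Depth limits TLR1, TLR2, TLR5 and TLR6, and every fold change rests on 2 experiments.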
